A study of Mus musculus with 18 samples.

Results

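The genes described here encode the terminal complement proteins that mouse liver supplies to plasma, together with the pair of plasma proteins that restrain them. They were chosen by symbol, as the rows Hc, C6, C8a, C8b, C8g, C9, Clu and Vtn of a deposited table of liver RNA counts, and all 8 were found among its 24394 gene symbols. The series measured RNA by 3′ tag sequencing, which reads the polyadenylated end of each transcript, in 18 livers, 6 in each of 3 groups. The first group is tumour-bearing mice of the genotype Alb-Cre+/+ STAT3f/f, referred to as Stat3-deleted. The albumin promoter of Alb-Cre directs the recombinase to hepatocytes, so these are meant to lose the floxed Stat3 segment. Whether other liver cells, bile duct cells among them, keep it was not tested. The second group is tumour-bearing wild-type (WT) mice and the third control WT mice. The tumour is PDA.69, a mouse pancreatic ductal adenocarcinoma line that the labels describe as KPC derived and T cell low; they name it for control livers as well, although the titles call these Ctrl. Where the tumour grew and for how long, and the sex and age of the mice, are not stated in the labels, and no group combines Stat3 deletion with the absence of a tumour. The series title concerns serum amyloid A made by hepatocytes; the comparisons ask how the terminal complement genes differ with a tumour, and with hepatocyte Stat3 in mice that bear one.

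Complement is a plasma cascade in which each activation route ends in the cleavage of C5, encoded in mouse by Hc. The fragment C5a attracts and activates leukocytes, while C5b binds C6 and C7, then C8, and then a ring of C9 molecules, which together form the membrane attack complex, a pore in the target membrane. Clusterin (Clu) and vitronectin (Vtn) bind the assembling complex in plasma and keep it from inserting into membranes. Hepatocytes are the main source of most of these proteins, and the liver raises part of its secreted proteins in the acute phase, a response that IL-6 family cytokines drive in hepatocytes through STAT3.

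The libraries held 7211799 to 9532978 counts in Stat3-deleted, 6159553 to 8838849 in tumour-bearing WT livers, with 5204378 to 7149953 in control WT livers. Each member had between 899 and 31188 counts in each liver, and all 8 passed the filter on low counts. Levels are CPM (counts scaled to one common library total, with TMM factors), and gene tests are edgeR's quasi-likelihood test with Benjamini-Hochberg adjustment over 11218 genes and a threshold of 0.05. The labels give the livers as separate samples. Each liver is 1 unit in the tests, and the gene tests set group differences against the spread between livers. Hepatocyte markers were abundant and their sum was, in the median liver, highest in Stat3-deleted livers: the 7 matched of 8 listed genes summed to 91048 to 105918 CPM in Stat3-deleted, 57484 to 121257 in tumour-bearing WT livers, with 50999 to 81868 in control WT livers. Gene by gene, 1 of the 7 rose and 0 fell in Stat3-deleted against tumour-bearing WT livers (median log2 fold change 0.27). Against control WT livers 1 rose and 0 fell as well (median 0.50). Stat3 averaged 118 ± 12.8 CPM in Stat3-deleted, 213 ± 38.3 in tumour-bearing WT and 112 ± 19.1 in control WT livers (SD, n = 6 each), but a tag at the 3′ end does not read the floxed exons and so does not check the deletion. The opposite-strand gene Stat5a also covers the 3′ end of Stat3, and with no strand setting given their reads cannot be told apart. Each liver also carries a number in the labels, whose meaning they do not give. In the WT groups these numbers fall into a lower run (25458 to 25463, replicates 1 to 3 of either group) and a higher run (25489 to 25504, replicates 4 to 6). Those of the Stat3-deleted livers (25444 to 25451) lie below both runs, next to the lower one. No number of a Stat3-deleted liver lies among those of WT livers, so genotype and label number cannot be told apart. In whole liver, fewer cells that express a gene and less RNA per cell cannot be told apart either.

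Positions are those of GRCm38, the assembly of mm10. C8a (chromosome 4, 104815679 to 104876398, minus strand) and C8b (104766317 to 104804548, plus strand) are neighbours whose 3′ ends face each other across 11.1 kb, and C6 and C9 share chromosome 15 at a distance of 1.63 Mb. The RefSeq promoter windows (build GRCm38.p6), 250 bases before to 50 after a gene's start, are shown for this C8 pair because the values of its members differed between the groups, for Hc because its pattern was among the nearest to that of C8a, and for Vtn because it holds letters of the STAT motif. Capitals mark matches to TTCNNNGAA (STAT), TTNNGNAA (C/EBP) and GTTAAT (part of an HNF1 site) on either strand, and the marked matches do not overlap. The windows are chr2:35061363-35061662 (minus strand) for Hc, chr4:104876349-104876648 (minus) for C8a, chr4:104766067-104766366 (plus) for C8b and chr11:78498870-78499169 (plus) for Vtn.
Hc: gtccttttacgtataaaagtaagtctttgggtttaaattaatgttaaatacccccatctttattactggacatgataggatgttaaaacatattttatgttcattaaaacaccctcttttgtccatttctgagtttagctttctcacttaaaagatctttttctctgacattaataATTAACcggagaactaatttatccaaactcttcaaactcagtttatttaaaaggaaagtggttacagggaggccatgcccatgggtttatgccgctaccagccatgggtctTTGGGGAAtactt
C8a: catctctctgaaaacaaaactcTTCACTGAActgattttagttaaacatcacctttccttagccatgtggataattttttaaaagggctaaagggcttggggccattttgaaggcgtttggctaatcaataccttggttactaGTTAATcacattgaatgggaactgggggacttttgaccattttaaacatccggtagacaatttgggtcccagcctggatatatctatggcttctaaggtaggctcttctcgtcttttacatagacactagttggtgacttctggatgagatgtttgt
C8b: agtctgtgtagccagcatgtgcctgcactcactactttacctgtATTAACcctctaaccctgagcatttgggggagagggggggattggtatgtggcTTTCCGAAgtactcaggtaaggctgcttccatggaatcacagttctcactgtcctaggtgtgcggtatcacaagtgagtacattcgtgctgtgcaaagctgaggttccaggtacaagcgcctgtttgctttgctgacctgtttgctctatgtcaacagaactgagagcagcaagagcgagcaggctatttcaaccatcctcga
Vtn: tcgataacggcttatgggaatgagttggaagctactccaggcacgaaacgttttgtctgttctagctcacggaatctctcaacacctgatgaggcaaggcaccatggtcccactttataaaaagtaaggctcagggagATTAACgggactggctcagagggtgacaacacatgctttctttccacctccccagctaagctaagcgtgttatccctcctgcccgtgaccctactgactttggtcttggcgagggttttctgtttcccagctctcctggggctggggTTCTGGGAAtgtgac
Of the 8 members 7 had a window in the table, and 2 of these held the STAT letters: C8a, 228 to 220 bases before its start, and Vtn, 35 to 43 bases after it. Those letters occur in 8.3% of the 32851 windows of this length in the table. The partial HNF1 site was in 4 of the 7, namely these 4 genes, against 7.1% of all windows, and the C/EBP letters were in 4 (Hc, C6, C8b and C9), against 40.7%. Vtn also held the core of the interferon-stimulated response element, left in lower case, which 3.44% of windows hold. A match is a description of letters, not a site in use.

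Hc, which encodes C5, was lowest in Stat3-deleted livers and highest in tumour-bearing WT livers. It stood at 329 to 401 CPM (median 347) in Stat3-deleted, 815 to 1123 (median 960.5) in tumour-bearing WT and 491 to 626 (median 553) in control WT livers. The 3 groups did not overlap, with means of 356 ± 25.4 CPM in Stat3-deleted, 978 ± 118 in tumour-bearing WT and 561 ± 56.3 in control WT livers (SD, n = 6 each). Hc (chromosome 2, 34983331 to 35061438) rose in tumour-bearing WT over control WT livers (log2 fold change 0.80, SE 0.12, adjusted p = 0.000257). It fell in Stat3-deleted livers against tumour-bearing WT livers (−1.46, SE 0.12, adjusted p = 4.15e-08) and against control WT livers (−0.65, SE 0.12, adjusted p = 0.00367). None of the 3 calls of Hc was lost when any 1 of the 18 libraries was left out. Within the label-number runs, 3 livers against 3, the tumour-bearing WT change was 0.80 (adjusted p = 0.128) in the lower and 0.80 (adjusted p = 0.203) in the higher run. An opposite-strand gene, Gm13449, overlaps Hc but not at its 3′ end, and the strand setting of the counting is not given in the sources used here.

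**Figure D1:**
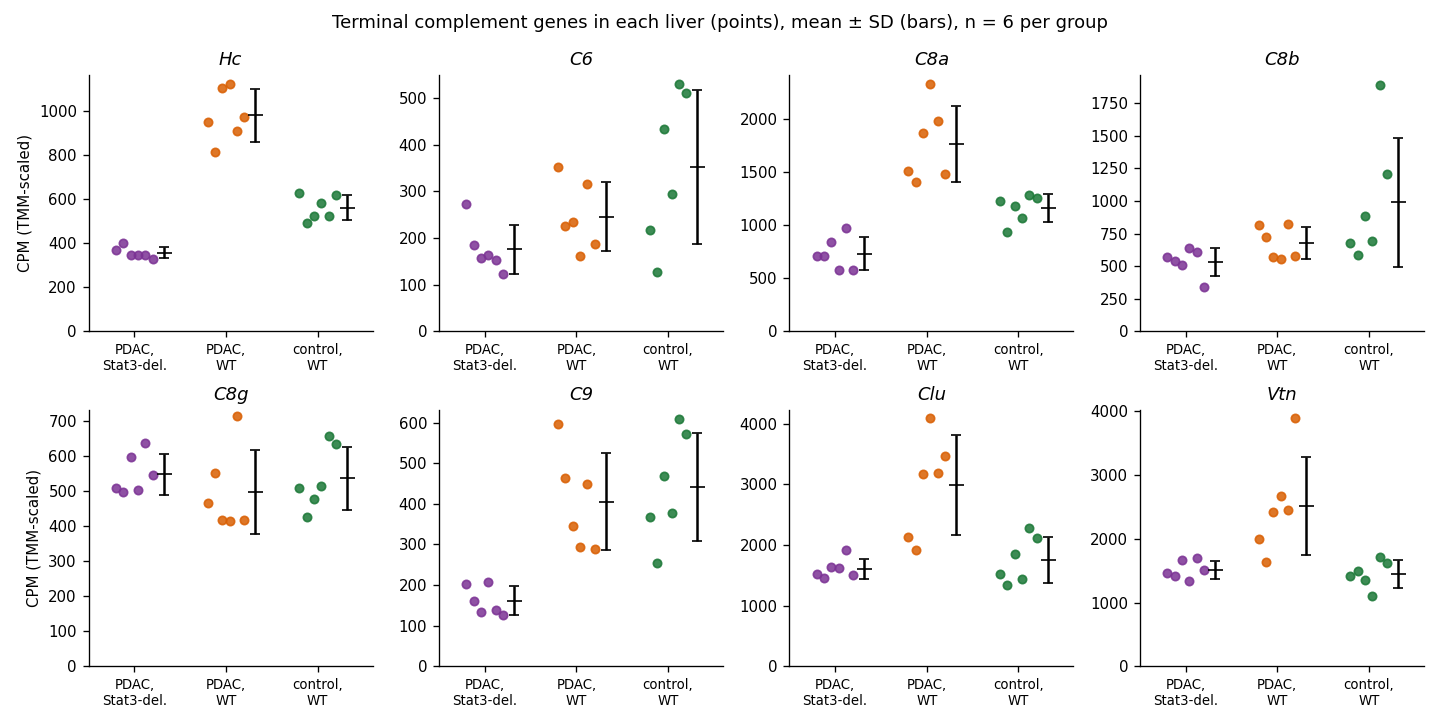
CPM (TMM-scaled, linear axis from 0) of the 8 terminal complement genes in each of 18 livers, with Stat3-deleted (PDAC, Stat3-del.), tumour-bearing WT (PDAC, WT) and control WT livers from left to right; points are livers and bars the mean ± SD of 6. For Hc the 3 groups do not overlap, C9 is lower in all 6 Stat3-deleted livers than in any WT liver, and C8g overlaps across the groups.

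Of the pore genes, C8a followed the same order of groups as Hc. C8a encodes the alpha chain of C8, one of the chains that enter the membrane. It ranged over 575 to 971 CPM (median 714) in Stat3-deleted, 1406 to 2332 (median 1691) in tumour-bearing WT and 941 to 1285 (median 1209) in control WT livers. Every tumour-bearing WT liver was above every liver of the other groups, and 5 of 6 Stat3-deleted livers were below every control WT liver, with replicate 5 at 971 CPM the exception. C8a fell in Stat3-deleted against tumour-bearing WT livers (log2 fold change −1.27, SE 0.16, adjusted p = 2.24e-05) and against control WT livers (−0.66, SE 0.16, adjusted p = 0.0190). It rose in tumour-bearing WT over control WT livers by 0.60 (SE 0.16, adjusted p = 0.0443), a call near the threshold. That call was lost in 12 of the 18 fits without 1 library (Stat3-deleted replicates 1 to 3, tumour-bearing WT 3 to 5 and each control WT liver; adjusted p up to 0.141) and with library totals in place of TMM (0.41, adjusted p = 0.131). Within the runs the change was 0.50 (adjusted p = 0.505) in the lower and 0.68 (adjusted p = 0.323) in the higher. Against the lower run of control WT livers alone, the Stat3-deleted change was −0.61 (adjusted p = 0.0750). C8a overlaps the opposite-strand gene Gm17662, away from its 3′ end.

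C8b, the neighbour of C8a, encodes the beta chain of C8, which docks C8 onto the forming complex. It had 341 to 641 CPM (median 554) in Stat3-deleted, 558 to 822 (median 650.1) in tumour-bearing WT and 589.7 to 1890.3 (median 790.2) in control WT livers. The top of the control range was set by replicate 5 at 1890.3 and replicate 6 at 1209 CPM, while the other control WT livers were at 589.7 to 884 CPM. The log2 fold change of tumour-bearing WT over control WT was −0.55 (SE 0.23, adjusted p = 0.240), and that of Stat3-deleted over tumour-bearing WT −0.34 (SE 0.23, adjusted p = 0.444), so neither passed. The first was −0.26 without control WT replicate 5, and −0.03 in the lower and −0.97 in the higher run. Against control WT livers C8b fell in Stat3-deleted livers, with −0.89 (SE 0.23, adjusted p = 0.0296). Without control WT replicate 5 this was −0.60 (adjusted p = 0.0844), and it was also lost without control WT replicate 6 or without Stat3-deleted replicate 2, 3, 5 or 6 (adjusted p 0.0534 to 0.0680). The value was −0.42 (adjusted p = 0.229) against the lower and −1.25 (adjusted p = 0.00967) against the higher run of control WT livers.

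C8g (chromosome 2, 25498651 to 25501719, minus strand) encodes the gamma chain, a lipocalin bound to the alpha chain of C8. Its levels were 497 to 638 CPM (median 526) in Stat3-deleted, 415 to 715 (median 442) in tumour-bearing WT and 426 to 656 (median 512) in control WT livers. The ranges overlapped throughout, and 1 tumour-bearing WT liver, replicate 5, was the highest of all. No comparison passed the test: the log2 fold change was −0.11 (SE 0.15, adjusted p = 0.775) for tumour-bearing WT over control WT, 0.14 (SE 0.15, adjusted p = 0.661) for Stat3-deleted over tumour-bearing WT and 0.03 (SE 0.15, adjusted p = 0.934) for Stat3-deleted over control WT, and the last of these was −0.086 with library totals. C8g overlaps the opposite-strand gene Fbxw5, away from its 3′ end.

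C9, whose product polymerises into the pore, was low in Stat3-deleted livers. It had 127 to 207 CPM (median 149) there, against 289 to 597 (median 397) in tumour-bearing WT and 254 to 608 (median 424) in control WT livers. All 6 Stat3-deleted livers were below every WT liver, and the WT groups overlapped over most of their range. C9 (chromosome 15, 6445327 to 6498751) fell in Stat3-deleted livers against tumour-bearing WT livers (log2 fold change −1.33, SE 0.21, adjusted p = 0.000338) and against control WT livers (−1.45, SE 0.21, adjusted p = 0.000573). Both calls were kept without any 1 library and against either run of WT livers. Between tumour-bearing WT and control WT livers the log2 fold change was −0.12 (SE 0.21, adjusted p = 0.828), with 0.36 in the lower and −0.61 in the higher run and 0.021 with limma voom.

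C6 (chromosome 15, 4727175 to 4814967), whose product joins C5b first and starts the complex, was called in 1 comparison. It was at 122 to 272 CPM (median 160.3) in Stat3-deleted, 161 to 353 (median 229.8) in tumour-bearing WT and 127 to 529 (median 364) in control WT livers, and each pair of groups overlapped. The log2 fold change was −0.52 (SE 0.28, adjusted p = 0.365) for tumour-bearing WT over control WT and −0.49 (SE 0.28, adjusted p = 0.348) for Stat3-deleted over tumour-bearing WT. C6 fell in Stat3-deleted against control WT livers (log2 fold change −1.0, SE 0.28, adjusted p = 0.0393). That call was lost in 9 of 18 fits without 1 library (Stat3-deleted replicates 2 to 6 and control WT 3 to 6; adjusted p up to 0.0966), and it was −0.56 (adjusted p = 0.335) against the lower and −1.35 (adjusted p = 0.00396) against the higher run of control WT livers. Within the runs, tumour-bearing WT over control WT was 0.060 in the lower and −1.02 in the higher. C7, the other gene of this step, lies 174 kb from C6 and is no member: it had 0 counts in the 6 Stat3-deleted livers, which allows up to 0.061 CPM over the group (3 counts), and summed to 11 counts in the tumour-bearing WT and 10 in the control WT livers.

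The inhibitors Clu and Vtn were higher in tumour-bearing WT livers than in both other groups. Clu (chromosome 14, 65968483 to 65981547), which encodes clusterin, a secreted chaperone, stood at 1459 to 1912 CPM (median 1568) in Stat3-deleted, 1921 to 4093 (median 3174) in tumour-bearing WT and 1343 to 2274 (median 1689) in control WT livers. Every tumour-bearing WT liver was above every Stat3-deleted liver, and 4 of 6 were above every control WT liver. Vtn, which encodes vitronectin, an adhesive plasma protein, ranged over 1332 to 1695 CPM (median 1488) in Stat3-deleted, 1636 to 3891 (median 2438) in tumour-bearing WT and 1107 to 1721 (median 1454) in control WT livers. Here 4 of 6 Stat3-deleted livers were below every tumour-bearing WT liver, and replicate 6 of the tumour-bearing WT group, at 3891 CPM, was the highest.

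Both genes rose in tumour-bearing WT over control WT livers, with log2 fold changes of 0.77 for Clu (SE 0.18, adjusted p = 0.0237) and 0.79 for Vtn (SE 0.17, adjusted p = 0.0121). Both fell in Stat3-deleted against tumour-bearing WT livers, at −0.90 for Clu (SE 0.18, adjusted p = 0.00347) and −0.73 for Vtn (SE 0.17, adjusted p = 0.0109). Between Stat3-deleted and control WT livers neither passed, with −0.13 (SE 0.18, adjusted p = 0.748) for Clu and 0.06 (SE 0.17, adjusted p = 0.883) for Vtn. The call of the rise of Clu did not survive leaving out replicate 3 or 4 of the tumour-bearing WT group or replicate 1, 2 or 4 of the controls (adjusted p 0.0553 to 0.0816), and was 0.55 (adjusted p = 0.0510) with library totals. Within the lower and the higher run the rise was 0.60 (adjusted p = 0.481) and 0.88 (adjusted p = 0.241) for Clu, and 0.50 (adjusted p = 0.509) and 1.01 (adjusted p = 0.197) for Vtn. Against the lower run of tumour-bearing WT livers, Vtn was at −0.42 (adjusted p = 0.0928) in Stat3-deleted livers and Clu at −0.58 (adjusted p = 0.0393).

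Markers of bile duct cells, which also express Clu, were highest in tumour-bearing WT livers by the median liver, as was Clu. Their relation with Clu from liver to liver was not tested. The 6 cholangiocyte markers summed to 29.1 to 44.1 CPM in Stat3-deleted, 45.2 to 148 in tumour-bearing WT livers, with 30.6 to 55.5 in control WT livers, and none of the 6 was at 0 in a whole group. Of the 4 that were tested, only Sox9 rose in tumour-bearing WT over control WT livers (1.31, adjusted p = 0.00276, edgeR). Only Sox9 and Spp1 fell in Stat3-deleted against tumour-bearing WT livers (−1.35, adjusted p = 0.000883, and −2.06, adjusted p = 0.00139). The median log2 fold change of the 4 was 1.19 in the first and −0.98 in the second of these comparisons. The part of bile duct cells in the result for Clu was not tested. Vtn (chromosome 11, 78499091 to 78502324) lies 22.4 Mb from Stat3 on the same chromosome.

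With a tumour in WT mice, the gene of C5, 1 of 5 pore genes and both inhibitors rose. Of the 8 members 4 rose (Hc, C8a, Clu and Vtn) and 0 fell in tumour-bearing WT against control WT livers, where 2.25% of all tested genes were called, 1.76% higher and 0.49% lower. The members' median log2 fold change was 0.25, against 0.00 over all genes, and Hc and C8a did not overlap between the groups (without overlap were 1.52% of all genes, 1.05% higher and 0.464% lower). Fitted on the 2 groups alone, Hc kept its call and C8a (adjusted p = 0.0971), Clu (0.0960) and Vtn (0.0672) lost theirs; the 3-group fit estimates the spread from all 18 livers. Library totals shifted the median of all genes by −0.19, turned the 197 higher and 55 lower genes into 115 and 177, and left Hc and Vtn called among the members.

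In tumour-bearing mice with Stat3-deleted hepatocytes, members of each role were lower than in tumour-bearing WT mice. Hc, C8a, C9, Clu and Vtn fell and 0 members rose, 5 of 8 called against 6.12% of all tested genes (2.89% higher and 3.23% lower). The median over members was −0.81, against −0.03 over all genes, and 4 members did not overlap (without overlap were 3.3% of all genes, 1.4% higher and 1.9% lower). The same 5 were called with DESeq2, limma voom, library totals and in each of the 18 fits without 1 library; against the lower run of tumour-bearing WT livers Vtn was not.

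Against control WT livers the gene of C5 and 4 of 5 pore genes fell in Stat3-deleted livers, and neither inhibitor passed the test. Hc, C6, C8a, C8b and C9 fell and 0 rose, 5 of 8 called against 4.85% of all tested genes (2.19% higher and 2.66% lower), with a median over members of −0.66 against −0.01 over all genes. Hc and C9 did not overlap between these groups (without overlap were 3.82% of all genes, 1.98% higher and 1.84% lower). Against the lower run of control WT livers alone, 2 members were called, Hc and C9. Library totals turned the full counts of 324 higher and 362 lower genes into 424 and 270 for Stat3-deleted over tumour-bearing WT livers, and 246 and 298 into 139 and 372 for Stat3-deleted over control WT livers. Each of the 3 comparisons shares a group with each of the others, so their values stand side by side and are not independent.

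**Figure D2:**
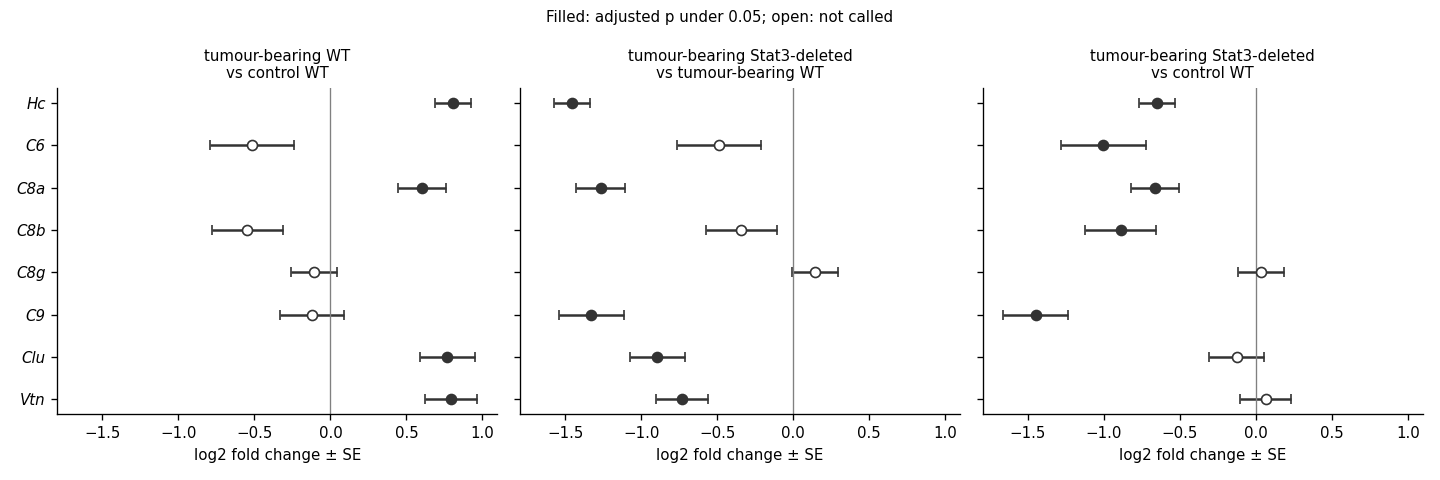
Log2 fold change ± SE from edgeR of the 8 members in tumour-bearing WT over control WT, Stat3-deleted over tumour-bearing WT and Stat3-deleted over control WT livers; filled points passed an adjusted p of 0.05. Hc and C8a lie right of 0 in the first panel and left of 0 in the others, C9 lies near 0 in the first panel and left of 0 in the others, and C8g lies near 0 in each panel.

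Ratios of counts within a liver do not depend on how libraries are scaled, and they showed that the chains of C8 changed unequally. The C8a to C8g ratio was 1.06 to 1.52 (median 1.41) in Stat3-deleted, 2.55 to 5.62 (median 3.41) in tumour-bearing WT and 1.96 to 2.48 (median 2.15) in control WT livers, with no overlap between any 2 groups. Its log2 difference was 0.71 for tumour-bearing WT minus control WT, −1.43 for Stat3-deleted minus tumour-bearing WT and −0.72 for Stat3-deleted minus control WT. Each gave an adjusted p of 0.00464, over 15 exact two-sided permutation tests with 6 livers per group (5 ratios in 3 comparisons); the smallest raw p of this design is 0.00216. In the lower and the higher run the first of these differences was 0.49 and 0.93, and 3 livers against 3 cannot give a p below 0.1.

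C8a also moved apart from its neighbour C8b. The C8a to C8b ratio was 0.898 to 1.70 (median 1.46) in Stat3-deleted, 1.86 to 4.18 (median 2.50) in tumour-bearing WT and 0.680 to 1.83 (median 1.44) in control WT livers. The tumour-bearing WT livers were above all others, and the other groups overlapped. The log2 difference was 1.03 for tumour-bearing WT minus control WT and −0.92 for Stat3-deleted minus tumour-bearing WT (adjusted p = 0.00464 each, exact permutation test), and 0.11 for Stat3-deleted minus control WT (adjusted p = 0.744). Within the lower run the first was 0.53 and within the higher 1.53. The C8b to C8g ratio was 0.63 to 1.28 (median 1.02) in Stat3-deleted, 1.15 to 1.75 (median 1.36) in tumour-bearing WT and 1.33 to 2.88 (median 1.62) in control WT livers. It fell in Stat3-deleted livers, with log2 differences of −0.52 against tumour-bearing WT livers, which it overlapped (adjusted p = 0.00812), and −0.83 against control WT livers, which it did not (adjusted p = 0.00464, exact permutation tests). For tumour-bearing WT minus control WT it was −0.32 (adjusted p = 0.146), with −0.17 without control WT replicate 5, and −0.04 in the lower and −0.60 in the higher run.

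**Figure D3:**
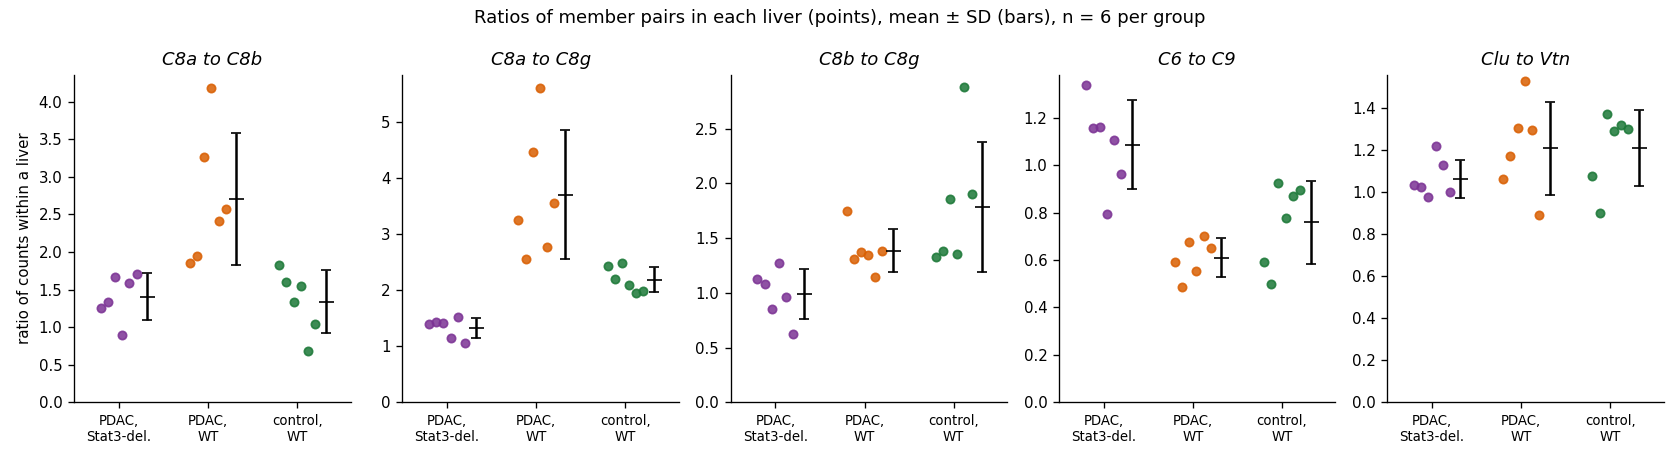
Ratio of counts of 5 pairs of members within each liver (linear axes from 0), for Stat3-deleted (PDAC, Stat3-del.), tumour-bearing WT (PDAC, WT) and control WT livers from left to right; points are livers and bars the mean ± SD of 6. C8a to C8g separates the 3 groups, and Clu to Vtn overlaps across them.

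The remaining pairs set the first against the last pore component and one inhibitor against the other. C6 to C9 was 0.794 to 1.34 (median 1.13) in Stat3-deleted, 0.488 to 0.702 (median 0.621) in tumour-bearing WT and 0.499 to 0.924 (median 0.823) in control WT livers. The ratio rose in Stat3-deleted livers by a log2 difference of 0.83 over tumour-bearing WT (adjusted p = 0.00464) and 0.54 over control WT livers (adjusted p = 0.0253, exact permutation tests), and was −0.29 for tumour-bearing WT minus control WT (adjusted p = 0.159). That last difference passed without control WT replicate 2 (−0.40, adjusted p = 0.0325), and was −0.16 in the lower and −0.42 in the higher run. The difference from control WT was lost without Stat3-deleted replicate 1, 2, 3 or 5 (adjusted p 0.0505 to 0.0577). Clu to Vtn was 0.978 to 1.22 in Stat3-deleted, 0.889 to 1.53 in tumour-bearing WT livers, with 0.90 to 1.37 in control WT livers, and none of its 3 differences passed (−0.01 for tumour-bearing WT minus control WT, −0.17 and −0.18 for Stat3-deleted minus tumour-bearing WT and minus control WT). The difference from tumour-bearing WT passed without replicate 6 of that group (−0.25, adjusted p = 0.0390), and that from control WT without replicate 2 of the controls (−0.26, adjusted p = 0.0253).

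Saa1, an acute-phase gene that encodes serum amyloid A, varied from 5493 to 48555 CPM (median 13372) among the 6 tumour-bearing WT livers, which allowed the members to be set against it within 1 group. Clu had a Pearson r of 0.93 on log2 CPM (exact permutation p = 0.00556, adjusted p = 0.0444 over 8 members) and a Spearman rho of 0.943 (adjusted p = 0.0667), and r was 0.89 without the 2 livers farthest from the median of Saa1. Replicate 4 was the highest for both genes and replicate 2 the lowest for both. This call was lost with library totals (r = 0.88, adjusted p = 0.131); without any 1 liver r was 0.91 to 0.98 (adjusted p at least 0.0667). With 5 livers the smallest exact p is 0.00833, which adjusts to 0.0667 when no other member is as low, so a lone member could not pass there. Hc (r = 0.81), C8a (0.72) and Vtn (0.72) had positive values and C9 (−0.85), C8b (−0.77), C6 (−0.73) and C8g (−0.53) negative ones, with adjusted p of 0.127 for the first 6 and 0.293 for C8g. Spearman's rho had the same signs, from −0.886 for C9 to 0.886 for Hc and Vtn, and 0 of 8 passed. Without the 2 farthest livers r was −0.04 for C8a and 0.40 for Hc, so those values rested on these livers, and −0.998 for C9 over 4 livers. Under library totals r of Hc was 0.13.

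**Figure D4:**
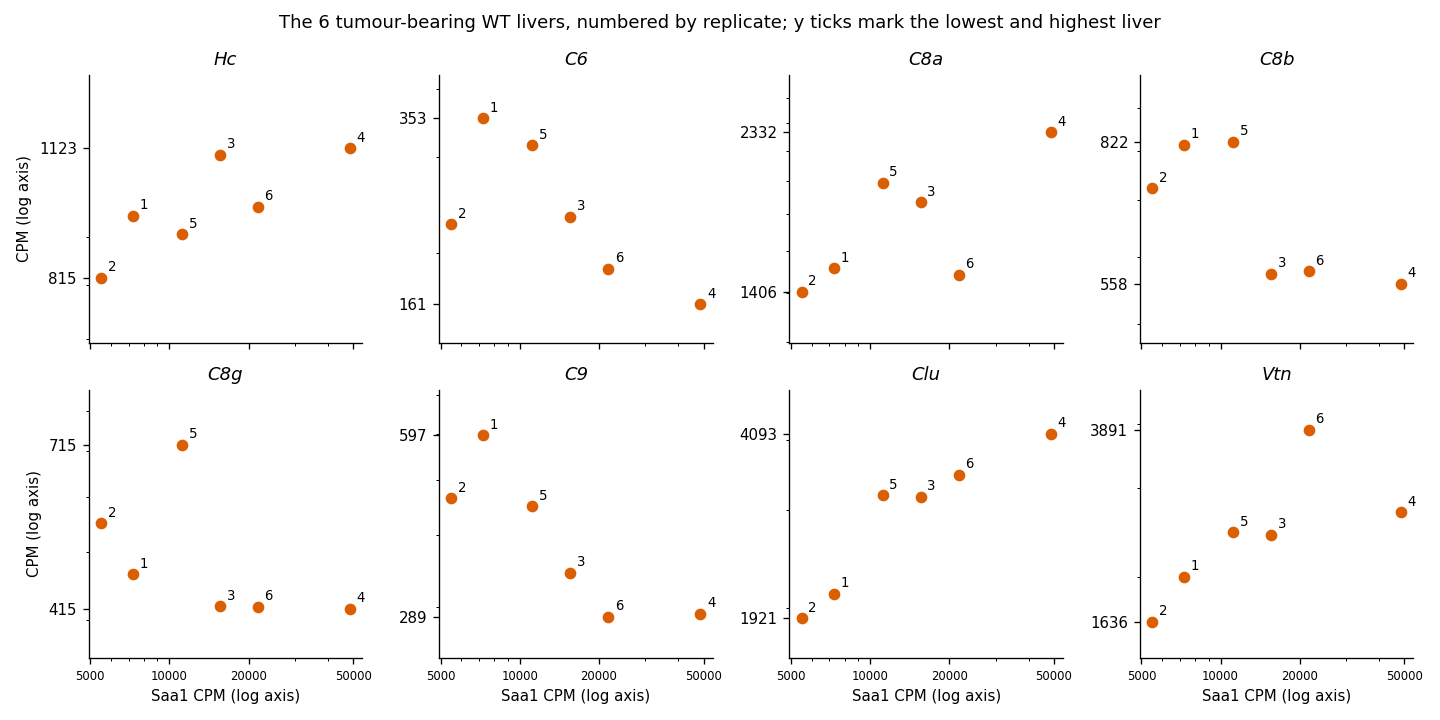
CPM of each member against CPM of Saa1 (both log axes) in the 6 tumour-bearing WT livers, numbered by replicate; y ticks mark the lowest and the highest liver. Clu climbs with Saa1 to 4093 CPM in replicate 4, while C9 is between 289 and 345 CPM in the 3 livers with the most Saa1 and at 449 to 597 CPM in the others.

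Likeness of pattern was measured as the root mean square difference between log2 CPM profiles over the 18 livers, each centred on its mean, among the 6565 genes averaging 10 CPM or more. By this measure Hc was nearest to Wfdc21 (0.229), C8a (0.230) and Lpgat1 (0.272), and C8a to Hc, 2200002D01Rik (0.234) and Map7d1 (0.269). Among the nearest to C6 were C8b (0.326) and Cast (0.371). C8b was nearest to Cast (0.236), Sars (0.249) and Cir1 (0.257), so C8b was nearer to C6 (0.326) than to its neighbour C8a (0.615). Among the nearest to C9 were Exph5 (0.330) and Cfap97 (0.375). Clu had Apon (0.170), Ifitm2 (0.212) and Vtn (0.215), and Vtn had Tfr2 (0.155), Dap (0.176) and Apon (0.179). C8g had Khk (0.116), Coasy (0.133) and Pecr (0.138). The measure is not scaled to the spread of a gene. Of the members C8g varied least about its own mean (root mean square 0.234, against 0.607 for Hc and 0.740 for C9), so its small differences do not rank its likeness above theirs.

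The rest of the complement system was read from a list of 45 further genes, 44 of them in the table and 37 tested. In tumour-bearing WT over control WT livers 9 of the 37 rose and 0 fell (1.76% of all tested genes rose), with C4b, a classical pathway component, at 1268 ± 350.3 CPM in tumour-bearing WT and 540.4 ± 42.5 CPM in control WT livers (SD, n = 6 each; log2 fold change 1.23, adjusted p = 0.000257), C3, on which all routes converge, at 1.04 (adjusted p = 0.00181) and Serping1, which encodes C1 inhibitor, at 0.91 (adjusted p = 0.00325). With library totals 5 rose. In Stat3-deleted against tumour-bearing WT livers 0 rose and 8 fell (3.23% of all tested genes fell). Among these, C3 was at 4453 ± 398 CPM in Stat3-deleted and 10127 ± 3139 CPM in tumour-bearing WT livers (log2 fold change −1.19, adjusted p = 0.000221), and C4bp, the C4b-binding protein, was at −1.09 (adjusted p = 0.000665). In Stat3-deleted against control WT livers 3 rose and 0 fell (2.19% of all tested genes rose).

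The 3 that rose in Stat3-deleted over control WT livers were C5ar2, a receptor of C5a, at 8.52 ± 1.51 CPM in Stat3-deleted and 4.78 ± 0.722 CPM in control WT livers (log2 fold change 0.83, adjusted p = 0.0138), C1qc, a chain of C1q (0.70, adjusted p = 0.0213), and Vsig4, a C3b receptor of Kupffer cells (0.87, adjusted p = 0.0266). Vsig4 lost its call without Stat3-deleted replicate 2, 3 or 5 or control WT replicate 1, 4 or 6, and C1qc without Stat3-deleted replicate 2 or 5 or control WT replicate 4 (adjusted p up to 0.0793 and 0.0605). Both, but not C5ar2, lost it with library totals. Against the lower run of control WT livers alone 0 of the 37 were called (edgeR, 6 against 3). C5ar2 was at 0.88 (adjusted p = 0.0838) there and at 0.77 (adjusted p = 0.0820) against the higher run. In tumour-bearing WT over control WT livers C5ar2 (0.88, adjusted p = 0.0102) and Vsig4 (0.95, adjusted p = 0.0237) rose too, and C1qc was at 0.48 (adjusted p = 0.153, edgeR). None of the 3 passed between Stat3-deleted and tumour-bearing WT livers (−0.06 for C5ar2, 0.22 for C1qc and −0.08 for Vsig4). The 6 Kupffer cell markers, of which Vsig4 is one, summed to 409 to 1250.4 CPM in Stat3-deleted, 411 to 1148 in tumour-bearing WT livers, with 214 to 627 in control WT livers, none at 0 in a whole group, and their part in C1qc and Vsig4 was not tested. Of the membrane inhibitors of the pore, neither Cd59a nor Cd59b passed in any comparison. Their log2 fold changes were 0.02 and −0.03 for tumour-bearing WT over control WT, −0.10 and 0.13 for Stat3-deleted over tumour-bearing WT, and −0.09 and 0.10 for Stat3-deleted over control WT livers. Neutrophil markers (6 matched of 7 listed, none at 0 in a whole group) summed to 36.4 to 105 CPM in Stat3-deleted, 69.6 to 349.6 in tumour-bearing WT livers, with 23.8 to 52.2 in control WT livers, highest in tumour-bearing WT livers as for Hc, C8a, Clu and Vtn, and their part in the members' results was not tested.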

How the data were processed

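RNA of 18 mouse livers was sequenced from the 3′ end (Lexogen QuantSeq FWD, per the labels' protocols). STAR and mm10 are named per the submitters' processing notes; for the counter, annotation and strand setting the sources used here give nothing. The authors' deposited table gives unnormalized counts for 24421 symbols in 18 columns, all matched to samples through the labels; 27 symbols turned into date numbers (0.103 to 0.166% of counts) were left out. 3′ tags give about 1 count per transcript end, so counts do not scale with transcript length.

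In R 4.3.3, edgeR 4.0.16 (TMM, filterByExpr, quasi-likelihood, 1 coefficient per group, 15 residual degrees of freedom, all 18 libraries) tested 11218 genes two-sided, and the procedure was tested on simulated data. Alternatives used DESeq2 1.42.0, limma 3.58.1 voom with quality weights, other scalings, filters, samples and blocks, and every library thinned to 5204378 counts. Ratios used log2 of counts plus 0.5, with exact permutation tests. Python 3.11.15 with scipy 1.17.1 and matplotlib 3.10.9 did the rest. Gene positions came from GENCODE M21 and promoters from RefSeq, in both cases on GRCm38.

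Members and lists were chosen with earlier results of these data known. Named are all 8 members, Stat3 and Saa1, up to 3 other complement genes per comparison with the smallest adjusted p, and the 3 genes most like each member, of which some are not reported here; marker genes, Cd59a, Cd59b and C7 were named after their values were seen. Fits against 1 run of WT livers, ratios within runs, and the alternatives for other complement genes were added after seeing the data. Replicate numbers are shared by the groups. Replicates 1 to 4 and 6 of the WT groups carry adjacent label numbers (25458 and 25459 for replicate 1), and replicate 5 does not (25498 and 25502). Same-numbered livers did not deviate together in every pair, so they were not used as pairs in the main fit. The lowest correlation was −0.096 between the WT groups and −0.126 between Stat3-deleted and control WT livers. No 2 libraries of the same group were alike within sampling noise.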

Additional observations from a re-analysis of the deposited data

How the results depend on the processing

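Of 410 recomputed fold changes of members called in the main fit, 354 kept direction and call, 56 lost the call and 0 changed sign; of 294 for members not called, 282 stayed so and 12 changed sign. For tumour-bearing WT over control WT livers, the 252 genes called became 450 with DESeq2, 128 with the 2 groups alone, 126 with those 2 groups and the run as a block, 38 within the lower and 50 within the higher run, and 132 to 462 without 1 library. The 4 members became 2 with library totals, 1 with the 2 groups alone, 1 with those 2 groups and the run as a block, 0 within either run (edgeR, 3 against 3) and 2 to 4 without 1 library. Unadjusted, 5 members had a p under 0.05 with all livers. They were the 4 that rose and C8b, which was lower in tumour-bearing WT livers (log2 fold change −0.55, unadjusted p = 0.0279, edgeR).

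For Stat3-deleted over tumour-bearing WT livers, 686 genes became 1097 with limma voom, 319 against the higher run and 469 to 906 without 1 library, and the 5 members stayed 5 to 5. For Stat3-deleted over control WT livers, 544 genes became 865 with DESeq2, 1318 with limma voom, 894 with the 2 groups alone, 246 against the lower run and 258 to 783 without 1 library. Its 5 members became 2 against the lower run and 3 to 5 without 1 library.

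Signs changed for tumour-bearing WT over control WT in the lower run for C6 (0.060), C8g (0.016), C9 (0.36) and the Clu to Vtn ratio (0.10), and for C9 with limma voom (0.021). For Stat3-deleted over control WT they changed for C8g with library totals (−0.086) and against the higher run (−0.14), for Vtn with library totals (−0.056) and for Clu against the lower run (0.027). Without 1 library, C8g (−0.041 to 0.10) and Vtn (−0.020 to 0.12) in that comparison, the C8a to C8b ratio in it (−0.070 to 0.23) and the Clu to Vtn ratio of tumour-bearing WT minus control WT (−0.090 to 0.077) changed sign. In these cases the cause was not tested.

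The replicate numbers did not pair the livers (same-number correlations −0.096 to 0.309, −0.082 to 0.212 and −0.126 to 0.167, best with the own number in 1, 1 and 0 of 6). With the replicate block, C8a in tumour-bearing WT over control WT (0.59, adjusted p = 0.0519) and C6 in Stat3-deleted over control WT (−0.96, adjusted p = 0.0585) lost their calls and no other member changed its call. Of the 15 ratio tests 9 passed, and 8 to 11 without 1 liver; paired by number, sign flips of 6 pairs passed 0, where no p can be below 0.0312 and the adjusted p of those 9 was 0.0521. The 1 relation with Saa1 that passed became 0 with library totals and 0 to 0 without 1 liver, where a lone member could not pass (smallest adjusted p 0.0667). The counts of C7 were too low to test, and the part of sequencing depth in this was not tested.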
